A study of Homo sapiens with 10 samples.

Results

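The 10 genes described here, DUSP4, DUSP5, DUSP6, SPRY2, SPRY4, SPRED1, SPRED2, ETV4, ETV5 and PHLDA1, are feedback inhibitors and transcriptional outputs of the ERK pathway, taken by symbol from 60623 gene IDs in each library. All 10 symbols matched 1 Ensembl ID, and all 10 were among the 18450 genes tested. The mRNA of A375 cells, an established line from a human melanoma that carries mutant BRAF, was sequenced 72 h after transfection of small interfering RNA (siRNA). Experiment 1 comprised 4 PHF10 knockdown libraries with 2 controls. Experiment 2 comprised 2 libraries that the labels call MYC knockdown, with 2 controls of its own. PHF10 is a subunit of the chromatin remodelling complex PBAF, and MYC is a transcription factor of growth genes. For the controls the protocol names a control siRNA, whereas their treatment label reads no treatment. The labels do not say whether replicates were separate cultures, so p-values here cover only how far these samples differ among themselves, and that may be technical.

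ERK is the last kinase of a cascade in which RAS activates RAF, RAF activates MEK and MEK activates ERK, and mutant BRAF keeps this cascade on without a growth factor. Active ERK induces its own brakes. The dual-specificity phosphatases DUSP4, DUSP5 and DUSP6 remove the activating phosphates of ERK, DUSP4 and DUSP5 in the nucleus and DUSP6 in the cytoplasm. Sprouty proteins (SPRY2, SPRY4) and SPRED proteins (SPRED1, SPRED2) act further up, between receptor and RAF, and SPRED proteins bring the RAS inhibitor neurofibromin to the membrane. ETV4 and ETV5 are ETS transcription factors of the PEA3 group, whose genes are repressed by CIC until ERK inactivates CIC. PHLDA1 encodes a pleckstrin homology-like domain protein whose mRNA follows ERK activity in many tumour lines.

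In GRCh38 the Sprouty genes lie at chr13:80335976-80340951 (SPRY2, ENSG00000136158) and chr5:142310427-142326455 (SPRY4, ENSG00000187678), both on the minus strand. SPRED1 (ENSG00000166068) lies at chr15:38252326-38357249 on the plus strand and SPRED2 (ENSG00000198369) at chr2:65310851-65432637 on the minus strand. The phosphatase genes lie at chr8:29333064-29350668 (DUSP4, ENSG00000120875, minus), chr10:110497838-110511544 (DUSP5, ENSG00000138166, plus) and chr12:89347232-89353271 (DUSP6, ENSG00000139318, minus). ETV4 (ENSG00000175832) lies at chr17:43527844-43579620, ETV5 (ENSG00000244405) at chr3:186046308-186110318 and PHLDA1 (ENSG00000139289) at chr12:76025447-76033932, all on the minus strand. Reads were counted by strand, so RNA of genes on the opposite strand, such as SPRY4-AS1, ETV5-AS1 and DHX8 at ETV4, was kept apart. Reads on the strand opposite to these 10 transcripts made up 0.0422% (ETV5) to 0.778% (PHLDA1) of the reads of both strands at each gene. The annotated span of ETV5 overlaps that of DGKG on its own strand, and the span of SPRED2 overlaps that of AC012370.1. Reads in a shared exon could not be given to either gene, but whether any exon is shared was not examined.

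Between 20.5 and 38.4 M reads per library were assigned to genes, and a member gene had 498 to 85217 reads in a library. Levels are given as CPM, the gene counts scaled to a common library size with TMM factors. SOX10, a marker of the melanocyte lineage, measured 528 to 948 CPM, whereas the pigment genes MLANA and TYR had at most 0.06 CPM, and the epithelial, immune and endothelial markers summed to at most 1.11, 0.446 and 4.29 CPM. Of 8 melanocyte lineage markers 6 were tested, and all 6 had negative log2 fold changes after PHF10 knockdown (median −0.51), as had 8836 of all 18450 genes. At an unadjusted p under 0.05 by edgeR 3 of the 6 were lower, beside 2114 of all genes. The groups did not overlap for SOX10, S100B and S100A1 but did for MITF, PMEL and DCT. In experiment 1 PMEL and DCT had at most 1.30 and 1.44 CPM. S100B passed and fell (log2 fold change −1.11, edgeR adjusted p = 0.00924). The 8 markers summed to 641 to 827 CPM in the PHF10 knockdown libraries, against 959 and 1090 CPM in their controls. Most of each sum was SOX10, with 528 to 676 CPM in the PHF10 knockdown libraries and 744 and 867 CPM in their controls. Replicates differed far more in experiment 1, with a common biological coefficient of variation of 26.7% when fitted alone, than in experiment 2, with 3.39%. In experiment 1 the summed CPM of 10 interferon-induced genes was 4481 to 8743 in PHF10 knockdown replicates 1 and 2 and control replicate 1, and 151 to 598 in the other 3 libraries. The share of reads outside annotated genes was 12.1% to 13.8% in the first 3 libraries and 9.93% to 10.6% in the other 3. The part of the lineage marker and interferon differences in the results was not tested. PHF10 mRNA measured 15.1 to 17.96 CPM in the PHF10 knockdown libraries, against 36.6 and 40.1 CPM in their controls. MYC mRNA overlapped between the groups of experiment 2, with 16.7 and 13.3 CPM in both libraries labelled MYC knockdown, while their controls had 15.0 and 26.5 CPM, so every direction in that comparison rests on the labels.

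**Figure D1:**
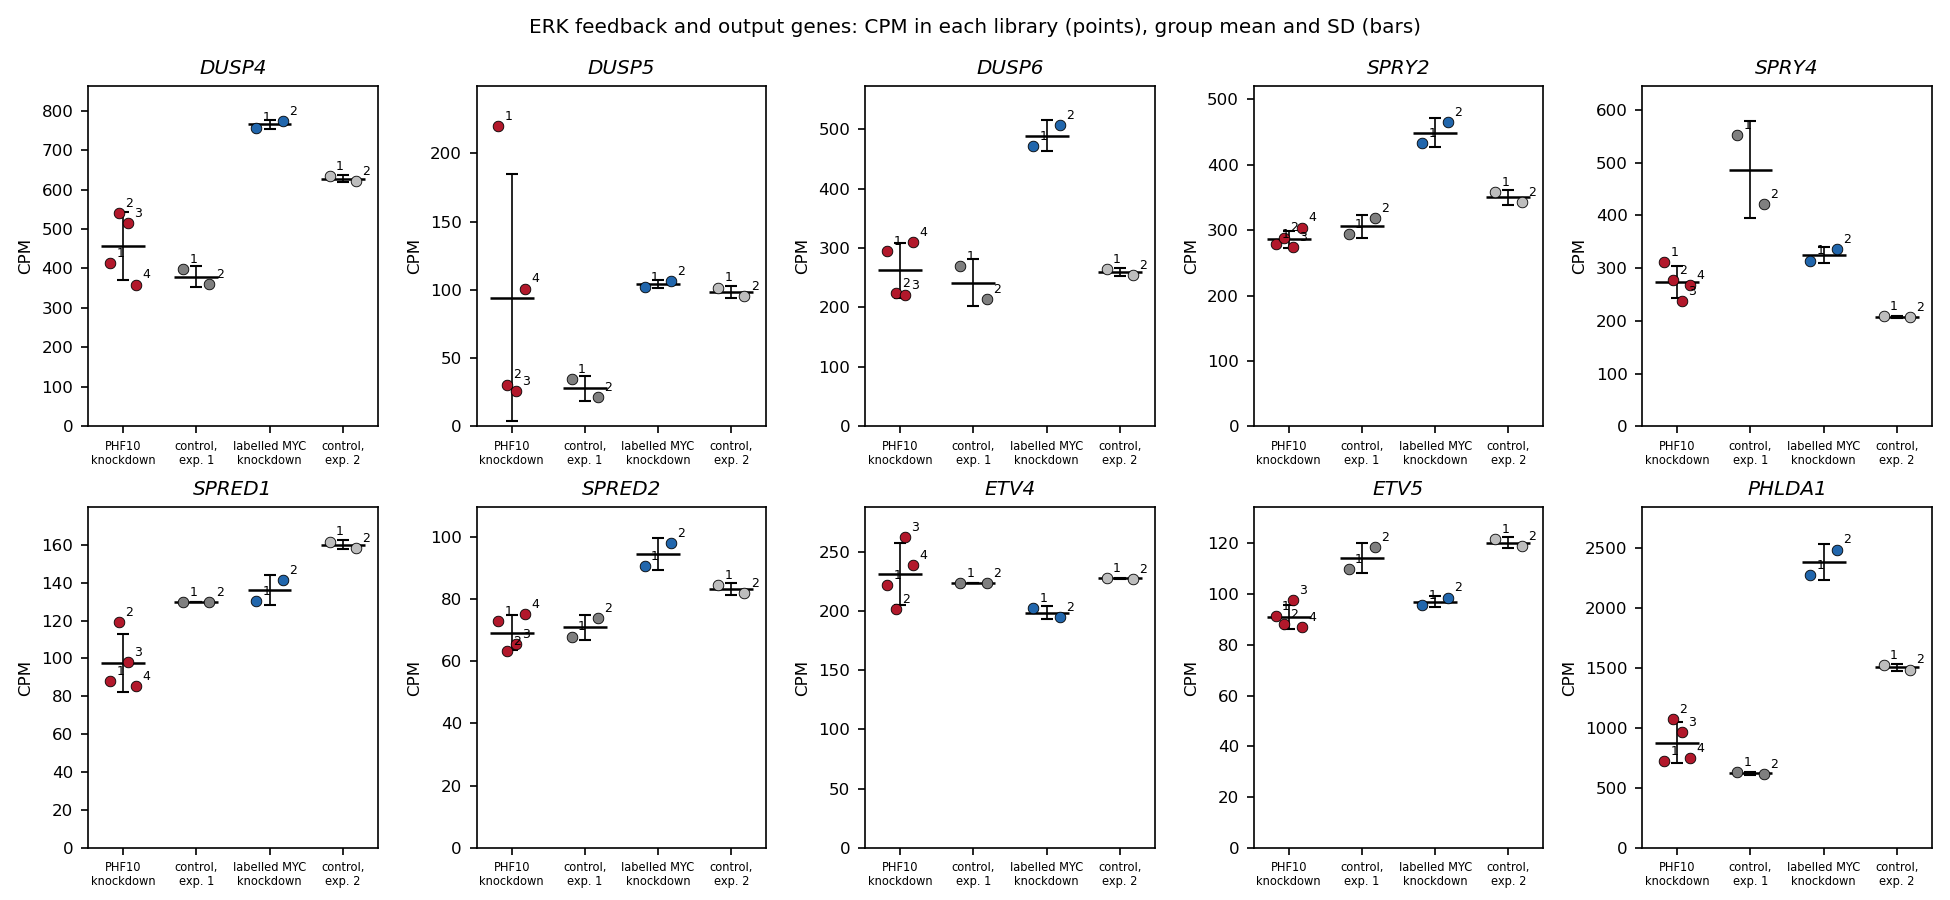
CPM (vertical axis, from 0) of each of the 10 genes in all 10 libraries, with points numbered by replicate and bars for the group mean and SD (n = 4 for PHF10 knockdown, n = 2 for the other groups). SPRY4 is lower in the 4 PHF10 knockdown libraries (238 to 312 CPM) than in both controls of experiment 1 (422 and 552 CPM). The groups of experiment 2 do not overlap for any of the 10 genes, which also holds for 69.7% of all genes.

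After PHF10 knockdown 1 of the 10 genes passed the threshold, SPRY4, which fell, and 0 rose. At an unadjusted p under 0.05, 1 was higher and 3 were lower, beside 22.7% of all genes in either direction. An adjusted p under 0.05 (edgeR quasi-likelihood, Benjamini-Hochberg over all genes) was the threshold, and 6.34% of all 18450 genes passed it, 2.75% higher and 3.58% lower. The median log2 fold change of the 10 genes was 0.01, with 5 above and 5 below zero, beside a median of 0.02 over all genes. The feedback and output genes thus had no common direction: 1 inhibitor was lower, ETV5 and SPRED1 had smaller negative values, and PHLDA1 and DUSP5 had positive ones.

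SPRY4, the Sprouty family member that restrains signalling from receptor to RAF, measured 312, 277, 238 and 267 CPM in replicates 1 to 4 of the PHF10 knockdown, against 552 and 422 CPM in control replicates 1 and 2. Every PHF10 knockdown library was below both controls. The mean was 273 ± 31 CPM (SD, n = 4) after PHF10 knockdown and 487 ± 92 CPM (SD, n = 2) in the controls, which gave a log2 fold change of −0.83 (SE 0.14; edgeR adjusted p = 0.0120). In bulk RNA such as this, fewer cells with the transcript and less of it per cell cannot be told apart. SPRY4 was also higher in the libraries with more reads outside genes, in both groups. The log2 ratio was −0.91 for PHF10 knockdown replicates 1 and 2 over control replicate 1, and −0.74 for replicates 3 and 4 over control replicate 2. With the share of reads outside genes as a covariate the log2 fold change was −0.90 and the edgeR adjusted p 0.00160. The call was lost without control replicate 1 (log2 fold change −0.63, adjusted p = 0.100) and with experiment 1 fitted alone (−0.83, adjusted p = 0.0964), where 0.28% of 17849 genes passed. Leaving out a control of experiment 1, here and for the genes below, leaves 1 control, which is assumed to vary like the other groups.

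A promoter sequence was found for 6 of the 10 genes, in 9 windows of 250 bases before a listed start (RefSeq, GRCh38.p14). The window of SPRY4 is shown because SPRY4 was the member that passed after PHF10 knockdown. It lies at chr5:142324248-142324497 on the minus strand, is written 5′ to 3′ with capitals reserved for a motif match, and overlaps an exon of a noncoding SPRY4 transcript in GENCODE 29.
SPRY4: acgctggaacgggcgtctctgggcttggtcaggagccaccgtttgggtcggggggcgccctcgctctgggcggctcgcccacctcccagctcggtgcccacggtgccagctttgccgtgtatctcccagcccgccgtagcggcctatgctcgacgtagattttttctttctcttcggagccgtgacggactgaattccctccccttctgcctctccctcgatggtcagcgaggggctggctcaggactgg
It holds no capitals, since no motif searched was found in it. The motifs were searched on both strands, and none of them contains another. They were CACGTG (the E-box bound by MYC with MAX), CCGGAA (an ETS core), TGAATGAA and TGAATGGA (CIC octamers), TGACGTCA (the cAMP response element) and TGACTCA (AP-1). The ETS core was found in the window of PHLDA1 and in 1 of the 3 windows of SPRY2, while 14.5% of 35116 windows of all genes held it. None of the 9 windows held any of the other 5 motifs, which occurred in 6.34% (E-box), 1.40% and 0.832% (CIC octamers), 1.65% (cAMP response element) and 4.2% (AP-1) of all windows.

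SPRY2, which acts at the same level of the pathway, differed little, with 278, 289, 274 and 304 CPM in replicates 1 to 4 of the PHF10 knockdown against 294 and 318 CPM in the controls (log2 fold change −0.10, SE 0.11). The groups overlapped, and the SD after PHF10 knockdown was 13 CPM (n = 4). SPRED1 measured 88.2, 119, 98.1 and 85.5 CPM in the PHF10 knockdown libraries against 129.6 and 129.7 CPM in the controls. All 4 values lay below both controls, at a log2 fold change of −0.41 (SE 0.14) that missed the threshold (edgeR adjusted p = 0.111). It passed without PHF10 knockdown replicate 2, the highest of the 4 (−0.52, adjusted p = 0.0233). SPRED2, its paralog, overlapped between the groups, with 63.3 to 75.1 CPM after PHF10 knockdown and 67.9 and 73.8 CPM in the controls (log2 fold change −0.03, SE 0.11).

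Among the phosphatase genes DUSP5, an ERK-specific nuclear phosphatase, had the widest spread. It measured 220, 30.6, 25.9 and 101 CPM in replicates 1 to 4 of the PHF10 knockdown, against 34.5 and 21.5 CPM in the controls. Replicates 1 and 4 lay above both controls, while replicates 2 and 3 lay between the controls. The highest PHF10 knockdown library had 8.48 times the CPM of the lowest, and the log2 fold change of 1.75 came with an SE of 0.85 (edgeR adjusted p = 0.268). DUSP6, the cytoplasmic phosphatase and a common readout of ERK activity, measured 295, 224, 221 and 310 CPM after PHF10 knockdown against 270 and 214 CPM in the controls. Its groups overlapped (log2 fold change 0.12, SE 0.17). DUSP4 measured 413, 540, 515 and 359 CPM after PHF10 knockdown against 398 and 360 CPM in the controls, and these overlapped too (log2 fold change 0.27, SE 0.17).

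The PEA3 factors differed from each other. ETV5 measured 91.2, 88.1, 97.7 and 86.8 CPM in the PHF10 knockdown libraries against 110 and 118 CPM in the controls. The groups did not overlap, but the log2 fold change of −0.33 (SE 0.09) missed the threshold (edgeR adjusted p = 0.0713). With DESeq2 (adjusted p = 0.00695) and with the share of reads outside genes as a covariate (adjusted p = 0.0388) ETV5 passed. Both settings called more genes in all, 2165 with DESeq2 and 2228 with the covariate, against 1169 in the main fit. ETV4 measured 221, 201, 262 and 238 CPM after PHF10 knockdown and 223 CPM in each control, so its knockdown libraries fell on both sides of the controls (log2 fold change 0.05, SE 0.12). PHLDA1 measured 723, 1077, 969 and 749 CPM in the PHF10 knockdown libraries against 631 and 615 CPM in the controls. All 4 were above both controls, and the log2 fold change of 0.50 (SE 0.19) missed the threshold (edgeR adjusted p = 0.153) but passed with DESeq2 (adjusted p = 0.0469). In all, the groups did not overlap for 4 of the 10 genes, 1 higher and 3 lower, and this held for 27.2% of all genes, 13.4% higher and 13.7% lower.

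**Figure D2:**
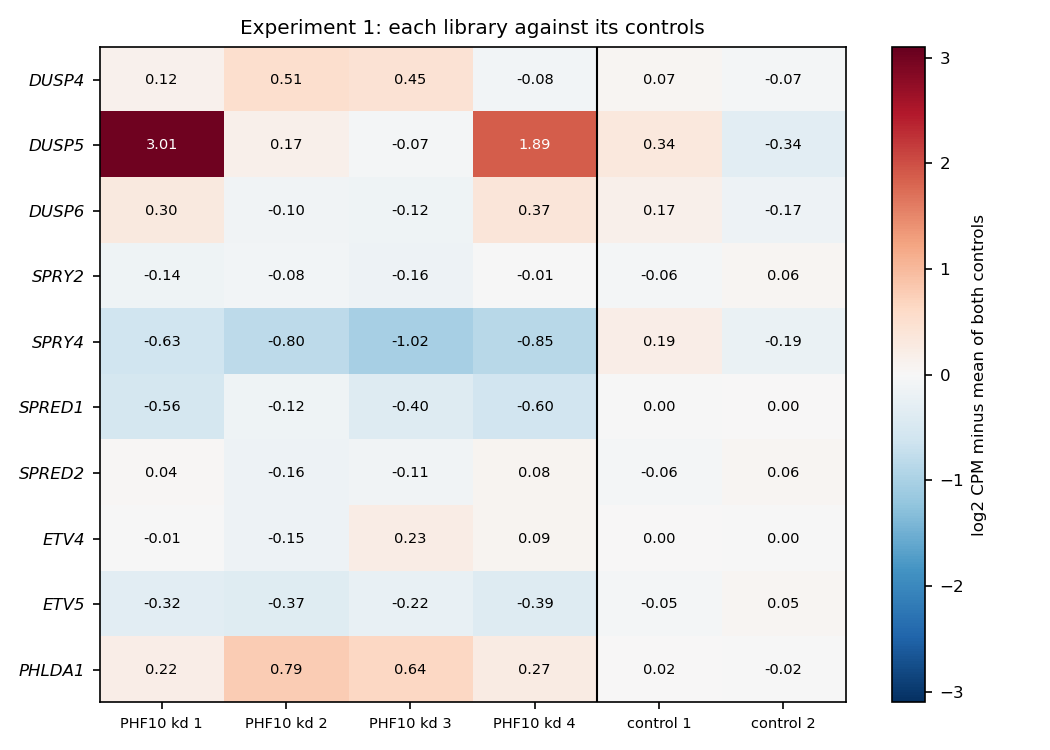
Log2 CPM of each gene in the 6 libraries of experiment 1 minus the mean of both controls, with PHF10 knockdown libraries left of the line. SPRY4 is below the controls in all 4 knockdown libraries (−0.63 to −1.02), and DUSP5 is far above them in replicate 1 (3.01) and replicate 4 (1.89) but not in replicates 2 and 3 (0.17 and −0.07).

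The PHF10 knockdown libraries also differed among themselves. DUSP5, DUSP6 and SPRED2 were higher in both of replicates 1 and 4 than in both of replicates 2 and 3, and DUSP4, PHLDA1 and SPRED1 were lower. This arrangement, in either direction, held for 6 of the 10 genes and for 52.6% of all genes tested. DUSP5 was the 1 member whose mean differed by at least 1.5 times between these pairs of libraries, as it did for 21.5% of all genes. The split was not that of the interferon genes, which were high in replicates 1 and 2, and PHF10 mRNA itself measured 16.1 and 15.7 CPM in replicates 1 and 4, against 17.96 and 15.1 CPM in replicates 2 and 3.

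In the libraries labelled MYC knockdown, which were set against the controls of experiment 2, 0 of the 10 genes passed by edgeR with all 10 libraries in 1 fit, where 0.493% of all genes did. At an unadjusted p under 0.05, 4 were higher (DUSP6, SPRY4, PHLDA1 and SPRY2) and 1 was lower (ETV5), a share of genes that was 13.2% over all genes. DESeq2 called the same 4 genes higher, where it called 3.9% of all genes, 1.92% higher, and limma-voom called 0. The groups did not overlap for any of the 10 genes, 7 higher and 3 lower, but this held for 69.7% of all genes, 33.6% higher and 36% lower. The median log2 fold change was 0.23, beside −0.01 over all genes.

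DUSP6 had the largest difference, with 471 and 507 CPM in both libraries labelled MYC knockdown, while their controls had 265 and 254 CPM. Both labelled libraries lay well above both controls, at a log2 fold change of 0.91 (SE 0.20; edgeR adjusted p = 0.0818). PHLDA1 measured 2277 and 2491 CPM in both libraries labelled MYC knockdown, while the controls had 1527 and 1488 CPM (log2 fold change 0.66, SE 0.21; edgeR adjusted p = 0.208). SPRY4 measured 314 and 336 CPM against 210 and 207 CPM in the controls (log2 fold change 0.64, SE 0.17; edgeR adjusted p = 0.142). For these 3 genes both labelled libraries lay above both controls by more than the replicates differed from each other. That also held for SPRY2 and DUSP4, and in the other direction for ETV5, ETV4 and SPRED1. The share of all genes with such a gap was not examined, but the groups did not overlap for 69.7% of them.

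Smaller differences had the same order within each gene. SPRY2 measured 433 and 465 CPM in both libraries labelled MYC knockdown, while the controls had 358 and 342 CPM (log2 fold change 0.36, SE 0.13). DUSP4 measured 757 and 774 CPM against 634 and 621 CPM in the controls (0.29, SE 0.20), and SPRED2 90.7 and 98.0 CPM against 84.6 and 81.8 CPM (0.18, SE 0.12). DUSP5 was nearly level, at 102.0 and 106 CPM in the labelled libraries against 101.7 and 95.4 CPM in the controls (0.08), and its SE was 0.89 in the fit of all libraries and 0.05 with experiment 2 alone. The 3 genes that were lower were ETV5, ETV4 and SPRED1. ETV5 measured 95.5 and 98.5 CPM against 122 and 119 CPM in the controls (log2 fold change −0.31, SE 0.11), ETV4 202 and 194 CPM against 228 and 227 CPM (−0.20, SE 0.14), and SPRED1 130 and 141 CPM against 162 and 158 CPM (−0.24, SE 0.16).

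The calls in this comparison differed with the libraries fitted. With experiment 2 fitted alone, 9 of the 10 genes passed by edgeR, and DUSP5 did not (adjusted p = 0.120). DUSP6 (log2 fold change 0.93, SE 0.04), PHLDA1 (0.67, SE 0.04), SPRY4 (0.65, SE 0.04), SPRY2, DUSP4 and SPRED2 rose and ETV5, SPRED1 and ETV4 fell. In that fit 44.5% of 17481 genes passed, 21.9% higher and 22.6% lower, and the count of 9 is to be read against that background. The replicates of each group nevertheless differed by more than sampling noise, with a chi-square of 4.2 (labelled MYC knockdown) and 2.31 (controls) per degree of freedom, against 49.6 to 144 between libraries of experiment 1.

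**Figure D3:**
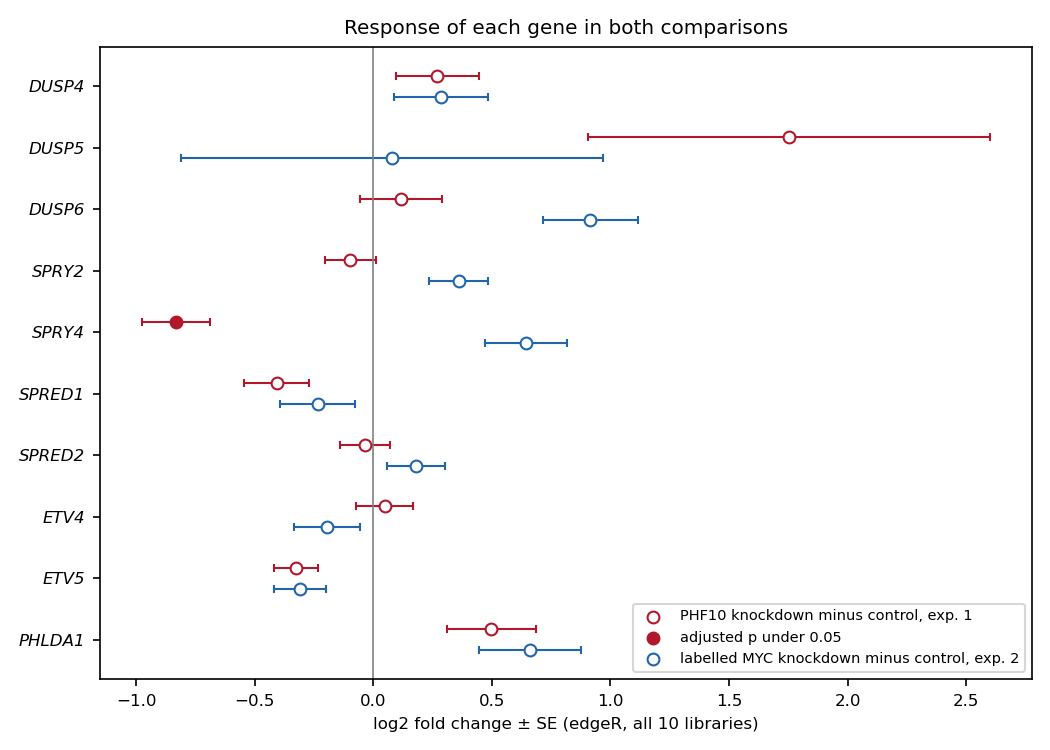
Log2 fold change ± SE of each gene in both comparisons from the fit of all 10 libraries, with filled points for an adjusted p under 0.05. SPRY4 is at −0.83 after PHF10 knockdown and at 0.64 in the libraries labelled MYC knockdown, and DUSP6 is at 0.12 and 0.91.

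The 2 responses were compared directly as the difference of the log2 fold changes, PHF10 knockdown minus labelled MYC knockdown. The controls of the 2 experiments are separate libraries. SPRY4 was the 1 member that passed, with a difference of −1.48 (SE 0.22; edgeR adjusted p = 0.0369), where 0.385% of all genes passed (11.7% at an unadjusted p under 0.05). It fell after PHF10 knockdown, and both libraries labelled MYC knockdown were above their controls. This call was lost without PHF10 knockdown replicate 4 (adjusted p = 0.0519), without control replicate 1 or 2 of experiment 1 (0.102 and 0.0719) and without any 1 library of experiment 2 (0.230 to 0.253, where the remaining library of that group was assumed to vary like the others), although the difference stayed between −1.66 and −1.27. For DUSP6 the difference was −0.80 (SE 0.26; adjusted p = 0.251) and for SPRY2 −0.46 (SE 0.17; adjusted p = 0.300), neither past the threshold by edgeR. SPRY2 passed with DESeq2 (adjusted p = 0.0393), which called 633 genes for the difference, against 71 in the main fit. Both knockdowns had the same sign for 6 of the 10 genes (DUSP4, DUSP5, DUSP6, PHLDA1 higher, SPRED1 and ETV5 lower), a share of 60%, against 61.3% over all genes tested.

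Levels between genes were compared as CPM per kilobase of exon. In the controls of experiment 1 SPRY2 was highest at 101 ± 5.7 (SD, n = 2), followed by PHLDA1 (77.2 ± 1.3) and SPRY4 (74.2 ± 14), which did not differ beyond their spread. ETV4 (61.9), DUSP4 (52.2 ± 3.7) and DUSP6 (52.2 ± 8.5) came next, the last 2 at the same level, and ETV5 (19.7), SPRED1 (15.7), SPRED2 (13.7) and DUSP5 (10.7) were lowest. The order differed in the controls of experiment 2, where PHLDA1 (187 ± 3.4) stood above SPRY2 (115 ± 3.6), and SPRY4 (31.7 ± 0.30) ranked below DUSP5 (37.7 ± 1.7). The controls of experiment 2 held 3.52 times the DUSP5, 2.42 times the PHLDA1, 1.66 times the DUSP4 and 0.427 times the SPRY4 CPM of the controls of experiment 1. The other 6 genes had ratios of 1.02 (ETV4) to 1.23 (SPRED1), and no difference between experiments can be told apart from their handling. SPRY4 thus measured 325 ± 15 CPM (SD, n = 2) in both libraries labelled MYC knockdown and 273 ± 31 CPM (SD, n = 4) after PHF10 knockdown, while the controls of the 2 experiments lay further apart.

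Across the 10 libraries, which share 4 groups and 2 experiments, DUSP4 and PHLDA1 were the closest pair of members by Pearson's r of log2 CPM (0.975), followed by SPRY2 and SPRED2 (0.939) and DUSP6 and SPRY2 (0.820). SPRY4 and ETV4 had no close partner by positive r among the members, their highest r being 0.117 (SPRY4 with DUSP6) and 0.155 (ETV4 with ETV5). Negative correlations were not examined. Outside the list the genes most like DUSP6 were SPATA13, DGKQ, EYA4, SLC5A3 and MRAS (r of 0.978, 0.964, 0.960, 0.957 and 0.955). These are descriptions over 10 libraries.

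The rest of the pathway was read from 5 further lists. The core of adaptors, RAS, RAF, MEK and ERK genes and ERK-activated kinases had a median log2 fold change of −0.03 after PHF10 knockdown. By edgeR 0 of its 27 genes were lower and 1 was higher, beside 3.58% and 2.75% of all genes. That gene was RPS6KA1, an ERK-activated ribosomal S6 kinase, with 94.97 to 114 CPM after PHF10 knockdown against 68.6 and 74.5 CPM in the controls (log2 fold change 0.53, SE 0.11; edgeR adjusted p = 0.0201). It was lost without either control of experiment 1 (adjusted p = 0.155 and 0.110) and without any 1 library of experiment 2 (0.0560 to 0.0583). The adaptor gene GAB1 had a log2 fold change of −0.42 (edgeR adjusted p = 0.0847). In the libraries labelled MYC knockdown 0 of these 27 genes passed by edgeR, DESeq2 or limma-voom. At an unadjusted p under 0.05 edgeR and limma-voom gave 0 and DESeq2 gave 1, higher. With experiment 2 fitted alone, where 44.5% of all genes passed, 10 of the 27 were higher and 8 lower.

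The list of 10 other ETS factor and repressor genes held CIC, ATXN1 and ATXN1L besides the ETS factors. Of these 10 genes 3 fell after PHF10 knockdown and 0 rose, where 3.58% of all genes fell. ETS2 measured 12.3 to 15.3 CPM against 25.03 and 28.5 CPM in the controls (log2 fold change −0.92, SE 0.13; edgeR adjusted p = 0.00559). ETS1 fell too, its log2 fold change being −0.71 (SE 0.11; edgeR adjusted p = 0.00819), as did ERF, an ETS repressor that ERK inactivates, with one of −0.57 (SE 0.09; adjusted p = 0.00927). ETS2 and ETS1 were lost without control replicate 2 (adjusted p = 0.0615 and 0.0905) and ERF without either control (0.0696 and 0.0786). With experiment 1 fitted alone these 3 genes missed the threshold (0.0602, 0.0835 and 0.0941), as did RPS6KA1, DUSP9, LIF and PLK3 (0.101 to 0.187). ETS1 was also the 1 gene of this list past the threshold by edgeR with all libraries in the libraries labelled MYC knockdown, where it measured 150 and 155 CPM against 273 and 267 CPM in the controls (−0.83, SE 0.13; edgeR adjusted p = 0.0335), a call lost without any 1 library of experiment 2 (0.312 to 0.377). ETV1, the third PEA3 factor, measured 158 and 163 CPM there against 103 and 104 CPM (0.63, SE 0.12; adjusted p = 0.0565), and ETS2 17.5 and 15.6 CPM against 25.8 and 29.3 CPM (−0.73, adjusted p = 0.0699). Both passed with DESeq2 (ETV1 3.07e-05, ETS2 0.00106) and with limma-voom (ETV1 0.0460, ETS2 0.0495). DESeq2 called 2 genes of the list higher and 2 lower, beside 3.9% of all genes. With limma-voom 1 was higher and 2 were lower, where it called 211 of all genes. By edgeR on experiment 2 alone, where 44.5% of all genes passed, 5 were higher, ATXN1 and CIC among them, and 3 lower.

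Among 7 other MAP kinase phosphatases 1 fell after PHF10 knockdown, DUSP9, beside 3.58% of all genes. It measured 4.99 to 7.34 CPM against 10.1 and 10.5 CPM in the controls (log2 fold change −0.71, SE 0.17, edgeR adjusted p = 0.0410). DUSP9 was lost without PHF10 knockdown replicate 3 (adjusted p = 0.0675), without either control (0.151 and 0.218) or without any 1 library of experiment 2 (0.0803 to 0.0882). DUSP1, a phosphatase of several MAP kinases, measured 20.3 to 28.98 CPM against 17.1 and 15.2 CPM (0.59, adjusted p = 0.0619). The 3 other Sprouty and SPRED genes (SPRY1, SPRY3 and SPRED3) had log2 fold changes of 0.02 to 0.34 after PHF10 knockdown, with 0 calls by edgeR, DESeq2 or limma-voom and 0 at an unadjusted p under 0.05, and the signs of SPRY1 and SPRY3 changed when some libraries were left out. SPRY1 measured 4.01 and 3.43 CPM in both libraries labelled MYC knockdown, while their controls had 7.88 and 7.54 CPM (−1.05, SE 0.24; edgeR adjusted p = 0.0966), the opposite direction to SPRY2 and SPRY4. In that comparison 0 of the 7 phosphatases and 0 of the 3 Sprouty and SPRED genes passed by edgeR, with 1 lower in each list at an unadjusted p under 0.05 (DUSP2 and SPRY1), and SPRY1 passed with DESeq2. With experiment 2 alone, where 44.5% of all genes passed, 2 phosphatases were higher and 4 lower, and 1 Sprouty or SPRED gene was lower.

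Of 20 other ERK-responsive output genes 2 rose and 0 fell after PHF10 knockdown (median log2 fold change 0.27), where 2.75% of all genes rose and 3.58% fell. LIF, a cytokine of the interleukin 6 family, measured 105 to 147 CPM against 77.5 and 56.5 CPM in the controls (0.89, SE 0.17; edgeR adjusted p = 0.0162), and missed the threshold without control replicate 2 (0.153). The kinase PLK3 measured 21.2 to 25.9 CPM against 17.6 and 14.3 CPM (0.54, SE 0.13; adjusted p = 0.0452), and missed it when any 1 library other than PHF10 knockdown replicate 4 was left out (0.0522 to 0.321) and by limma-voom (0.0508). AREG, an EGF receptor ligand, measured 10.2 to 53.3 CPM against 6.50 and 2.98 CPM (2.40, SE 0.66; adjusted p = 0.0665). In the libraries labelled MYC knockdown the median was −0.07 and 0 of the 20 passed by edgeR or limma-voom. At an unadjusted p under 0.05, 4 were higher and 1 was lower, beside 13.2% of all genes by edgeR. DESeq2 called 3 higher and 1 lower, beside 3.9% of all genes. With experiment 2 alone 8 were higher and 6 lower, in a fit where 44.5% of all genes passed. HBEGF, another EGF receptor ligand, measured 9.67 and 7.86 CPM in the labelled libraries against 23.4 and 22.1 CPM (−1.38, SE 0.29, edgeR adjusted p = 0.0713). AREG ran the other way, with 19.9 and 29.7 CPM in the labelled libraries against 5.42 and 4.89 CPM in their controls. The adaptor SH2B3 had a log2 fold change of 0.56 (edgeR adjusted p = 0.130) and the chromatin protein HMGA2 one of 0.79 (adjusted p = 0.136).

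**Figure D4:**
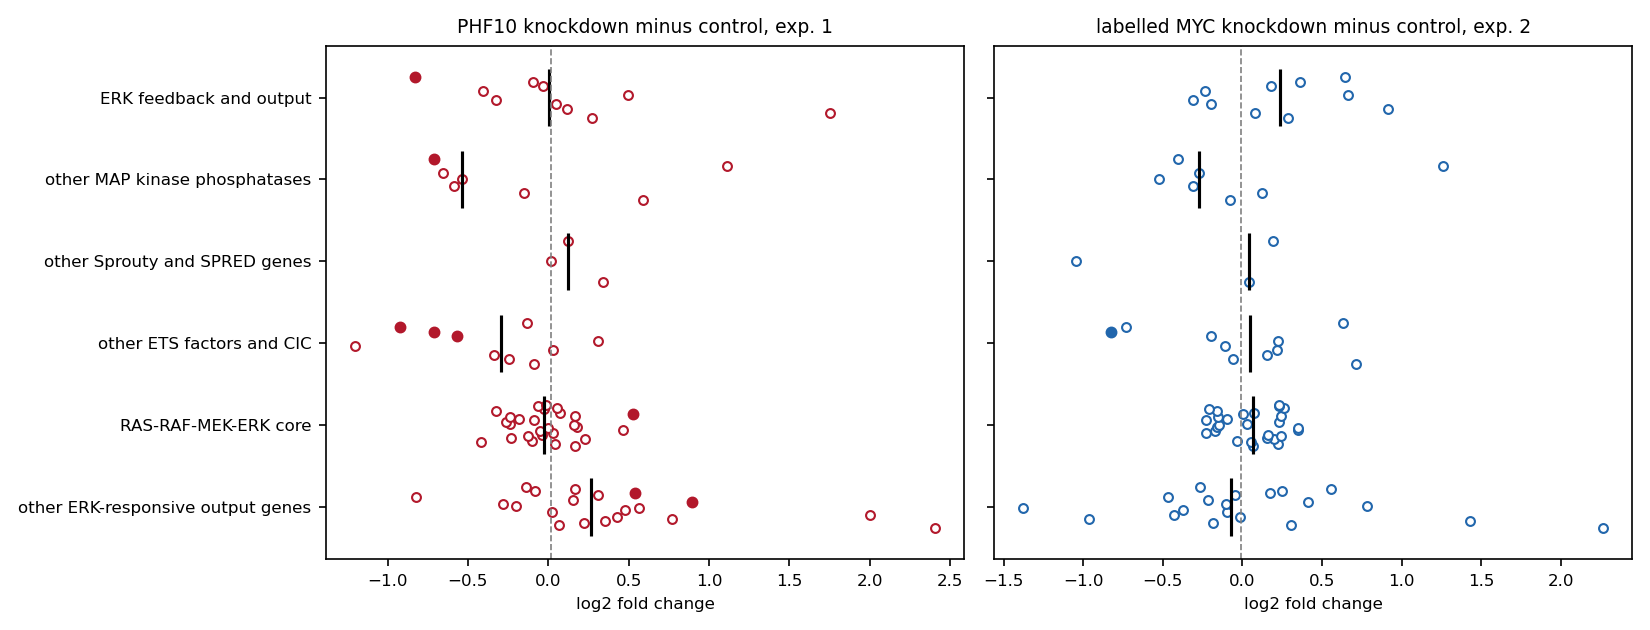
Log2 fold changes of the 10 genes and of 5 lists of other pathway genes in both comparisons, each point a gene, filled for an adjusted p under 0.05, with a black bar at the list's median and a dashed line at the median of all genes. After PHF10 knockdown the filled points are SPRY4, DUSP9, ETS1, ETS2, ERF, RPS6KA1, LIF and PLK3, and ETS1 is the 1 filled point in the libraries labelled MYC knockdown.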

How the data were processed

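The authors deposited raw counts of reads per gene for 10 A375 libraries. Per the labels' protocols, poly(A) RNA went into directional libraries that were read from 1 end for 100 nt. The submitters' processing notes name cutadapt, STAR, GRCh38.p13 and hg38, without versions or the gene annotation used, and the files have the layout of STAR gene counts. Values come from the reverse-strand column, because the same-strand column had 5.26% to 5.55% of the reads of both strands in genes. Symbols came from a table of gene names, and coordinates and exon lengths from GENCODE release 29 (GRCh38). Lines for reads outside genes, ambiguous, at several places or unaligned (19.1% to 23.6% of a library) stayed out of library sizes.

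All 10 libraries entered 1 quasi-likelihood model of the counts (edgeR 4.0.16 in R 4.3.3) with 4 group means, TMM factors, filterByExpr and robust spread. It left 6 residual degrees of freedom, and p-values were adjusted over 18450 genes. Each gene had 1 spread for both experiments, so the p-values of either comparison draw on the replicates of both. The common biological coefficient of variation was 21.4% in this fit, against 26.7% and 3.39% with experiments 1 and 2 fitted alone. The script was tested on simulated data. Log2 CPM used a prior count of 2. SE is that of the log2 fold change.

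The members and lists were chosen with earlier results of these data known. Named genes were the 10 members, PHF10, MYC, up to 3 genes per list and comparison by smallest p, and the 5 genes closest to DUSP6 with at least 5 CPM. A gene that this rule names is not reported here. Alternatives were DESeq2 1.42.0, limma-voom (limma 3.58.1), RLE factors, no filter, a stricter filter (1 CPM in 4 libraries), unstranded counts, separate fits per experiment, a replicate block, the share of reads outside genes as a covariate, and leaving out each library.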

Additional observations from a re-analysis of the deposited data

How the results depend on the processing

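SPRY4 kept its direction in every alternative run, but its calls rest on few libraries, and the count of members called differed between alternatives, for which the cause was not tested. After PHF10 knockdown 1 member was called, against 3 with DESeq2, 2 with no filter, 2 with the covariate and 0 with experiment 1 alone, and 0 to 2 when 1 library was left out. In the libraries labelled MYC knockdown 0 were called, against 4 with DESeq2, 3 with no filter, 2 with the covariate and 9 with experiment 2 alone. For the difference 1 was called, against 2 with DESeq2, 2 with no filter, and 0 to 1 when 1 library was left out.

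Over all genes 1169 were called after PHF10 knockdown, against 2165 with DESeq2, 2372 with no filter, 2228 with the covariate, 50 with experiment 1 alone and 214 to 1387 when 1 library was left out. In the libraries labelled MYC knockdown 91 were called, against 720 with DESeq2, 211 with limma-voom, 911 with no filter, 490 with the covariate, 7781 with experiment 2 alone and 0 to 231 when 1 library was left out. For the difference 71 were called, against 633 with DESeq2, 918 with no filter, 445 with the covariate and 1 to 140 when 1 library was left out. With no filter DUSP5 had an adjusted p of 1.27e-18 after PHF10 knockdown, against 0.268; the cause was not tested.

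The labels do not state what the replicate numbers share. The correlations of same-numbered libraries' deviations from their group means were 0.484 and −0.297 in experiment 1 and −0.0309 in experiment 2. In a group of 2 the deviations mirror each other, so these values cannot decide whether the samples were paired. With the replicate block 869 genes were called after PHF10 knockdown, 0 in the libraries labelled MYC knockdown and 1 for the difference, where 0 members passed (SPRY4 −1.36, edgeR adjusted p = 0.0895). The block also ended the PHF10 knockdown calls of RPS6KA1 (edgeR adjusted p = 0.0762), ETS1 (0.0701), DUSP9 (0.0901) and PLK3 (0.0593), and that of ETS1 in the libraries labelled MYC knockdown (0.116). Under the block ETV4 (−0.0820) and SPRY1 (−0.110) changed sign after PHF10 knockdown, and so did DUSP4 for the difference (0.0325). SPRY1 also did with limma-voom (−0.0167), and DUSP5 in the libraries labelled MYC knockdown with the covariate (−0.0374).

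Leaving out 1 library changed the sign of values near zero, none of them called. After PHF10 knockdown the log2 fold changes ranged from −0.0437 to 0.286 (DUSP6), −0.100 to 0.0227 (SPRED2), −0.0187 to 0.111 (ETV4), −0.0882 to 0.162 (SPRY1), −0.166 to 0.470 (SPRY3). In the libraries labelled MYC knockdown the range was −0.102 to 0.170 (SPRED3), and for the difference −0.100 to 0.0837 (DUSP4) and −0.0747 to 0.0370 (ETV5). Among all single-gene results 975 kept their direction and side of the threshold, 76 passed it newly, 55 no longer passed and 24 changed sign.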

Other observations

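Several list genes that are no members followed the arrangement of DUSP5 among the PHF10 knockdown libraries, and they were chosen after their values were seen. The receptor EPHA2 measured 767, 269, 257 and 576 CPM in replicates 1 to 4 of the PHF10 knockdown, with 321 and 228 CPM in control replicates 1 and 2. FOSL1, an AP-1 subunit stabilised and induced by ERK, measured 220, 78.4, 85.2 and 150 CPM against 99.8 and 92.1 CPM, and DUSP7 31.3, 11.6, 13.3 and 30.8 CPM against 34.2 and 34.0 CPM. RASA1, a RAS GTPase-activating protein, measured 112, 31.7, 29.4 and 71.7 CPM against 51.6 and 57.2 CPM. The ETS factor ELK3 ran the other way, with 39.1, 107, 88.0 and 39.6 CPM against 148 and 167 CPM. Replicates 1 and 4 together held 2.55 (EPHA2), 2.26 (FOSL1), 2.50 (DUSP7), 3.00 (RASA1) and 0.404 (ELK3) times the mean of replicates 2 and 3. A ratio of at least 1.5 times in either direction with no overlap held for 4 of the 20 other output genes and for 21.5% of all genes. It held for 28.6% of the 7 other phosphatases and 14.8% of the 27 core genes. Among the 10 other ETS factor and repressor genes it held for 10%, and among the 3 other Sprouty and SPRED genes for 0%.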
